A study of Homo sapiens with 6 samples.

Results

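The TRIM family, the tripartite motif proteins, was followed in HaCaT, a cell line of spontaneously immortalised keratinocytes from human skin. Rows of the deposited expression table were taken where the gene symbol was TRIM, a number and at most 1 further letter, which matched 74 of 60671 rows. Of these, 2 symbols ending in P (TRIM75P and TRIM80P) were left out as pseudogene symbols, which leaves 72 genes. The symbol rule uses no measured value, but members were chosen with earlier results of these data known. One group was HaCaT cells given interferon beta (IFN-beta) at 160 ng/mL for 24 h in serum-free DMEM-H medium (n = 3 libraries), and the other was control HaCaT cells in that medium without interferon (n = 3 libraries). All libraries carry the genotype label WT, and the line stands for 1 cell source. Whether replicates came from separate cultures is not in the labels, and p-values therefore rest on a spread between libraries that could be technical only.

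TRIM proteins share an N-terminal block made of a RING finger, B-boxes and a coiled coil. The RING finger makes most of them E3 ubiquitin ligases, enzymes that pass ubiquitin from an E2 enzyme to a chosen target, and the C-terminal domain usually picks that target. Several members act against viruses directly or tune the sensors that start an interferon response, and a subset is itself induced by interferon, while others are chromatin repressors, cytoskeletal proteins or regulators of epithelial cells.

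The interferon-stimulated response element is a DNA motif found near many genes that type I interferons switch on. Its core was searched as GAAA, any 2 bases and GAAA again, on both strands of 300-base windows around annotated gene starts (RefSeq, GRCh38.p14), from 250 bases before the start to 50 bases from the start on. Windows existed for 56 of the 72 genes. The windows of TRIM5, TRIM69, TRIM21, TRIM14 and TRIM26 are shown because these 5 genes had a match and were among the 7 largest rises below. They are written along the gene's own strand, with matches in capitals (TTTC, 2 bases and TTTC where the match lies on the other strand). In TRIM21 and TRIM26 a pair of matches overlaps, so their capitals run on.
TRIM5, chr11:5685025-5685324, minus strand: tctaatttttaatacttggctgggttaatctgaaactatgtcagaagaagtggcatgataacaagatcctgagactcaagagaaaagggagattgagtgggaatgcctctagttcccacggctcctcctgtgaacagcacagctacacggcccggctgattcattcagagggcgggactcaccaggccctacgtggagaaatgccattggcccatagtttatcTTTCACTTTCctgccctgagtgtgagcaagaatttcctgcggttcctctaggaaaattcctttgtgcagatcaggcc
TRIM69, chr15:44736278-44736577, plus strand: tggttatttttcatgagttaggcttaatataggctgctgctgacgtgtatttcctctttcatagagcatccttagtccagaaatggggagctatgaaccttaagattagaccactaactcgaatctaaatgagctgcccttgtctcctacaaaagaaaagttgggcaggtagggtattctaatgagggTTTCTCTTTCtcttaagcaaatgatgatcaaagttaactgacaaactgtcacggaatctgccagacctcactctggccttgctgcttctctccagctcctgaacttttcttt
TRIM21, chr11:4393653-4393952, minus strand: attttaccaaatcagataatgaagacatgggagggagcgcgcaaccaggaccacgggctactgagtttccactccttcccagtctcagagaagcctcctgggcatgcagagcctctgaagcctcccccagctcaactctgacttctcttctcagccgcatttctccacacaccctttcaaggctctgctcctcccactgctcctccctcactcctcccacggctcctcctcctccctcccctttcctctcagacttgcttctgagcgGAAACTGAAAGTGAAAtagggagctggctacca
TRIM14, chr9:98119173-98119472, minus strand: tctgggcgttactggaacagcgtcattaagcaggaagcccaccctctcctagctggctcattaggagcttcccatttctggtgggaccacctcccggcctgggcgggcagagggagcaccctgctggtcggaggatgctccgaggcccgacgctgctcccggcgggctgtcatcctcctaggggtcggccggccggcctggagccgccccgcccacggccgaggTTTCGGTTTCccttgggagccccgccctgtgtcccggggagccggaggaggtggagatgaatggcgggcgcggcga
TRIM26, chr6:30213357-30213656, minus strand: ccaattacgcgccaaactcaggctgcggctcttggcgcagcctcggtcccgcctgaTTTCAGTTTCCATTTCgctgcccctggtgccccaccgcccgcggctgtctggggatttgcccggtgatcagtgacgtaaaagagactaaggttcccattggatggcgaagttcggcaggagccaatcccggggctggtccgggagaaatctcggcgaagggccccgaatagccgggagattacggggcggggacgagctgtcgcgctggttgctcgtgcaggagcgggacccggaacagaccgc
The match of TRIM5 began 27 bases before the annotated start and that of TRIM14 began 26 bases before it. In TRIM69 the match began 62 bases before the start, in TRIM26 the first began 194 bases before it, and in TRIM21 the first began 17 bases after it.

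Values are FPKM (fragments per kilobase of gene, scaled to library depth) as the authors deposited them, the error of a group mean is the SD over its 3 libraries (n = 3), and a log2 change has its SE. FPKM is scaled by gene length, so levels of different genes can be set side by side. The libraries held between 25832158 and 30594527 reads, recovered from the steps of the FPKM values. The 10 keratinocyte markers summed to 4294 to 4333 FPKM in IFN-beta libraries and 4298 to 4775 FPKM in control libraries. Of these 10, 4 passed as higher and 3 as lower, with log2 changes from -1.29 for KRT15 to 0.53 for COL17A1. The 7 fibroblast markers summed to at most 3.27 FPKM, the 7 leukocyte markers to at most 4.09 FPKM, the 5 melanocyte markers to at most 1.87 FPKM, the 4 endothelial markers to 2.12 to 2.21 FPKM in IFN-beta and 0.696 to 0.964 FPKM in control libraries and the 5 muscle markers to at most 0.222 FPKM. DCN, LYZ, MLANA, TEK and MYOG were at 0 in every library. The endothelial marker CDH5 passed as higher (log2 change 1.01), as did the fibroblast marker COL1A1 (0.48), and the part of these markers in the results was not tested. In bulk samples, more cells of a type and more RNA per cell cannot be told apart. Among listed genes of the interferon response, IRF9 passed as higher with a log2 change of 1.82 and MX1 with one of 7.07.

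Of the 72 TRIM genes, 57 had a value above 0 in some library and 45 in all 6. The test covered genes with a mean of at least 0.5 FPKM over the 6 libraries, which 43 TRIM genes reached. All 43 also had a mean of at least 0.5 FPKM in the control libraries alone, so none entered the test through the IFN-beta libraries. The other 29 comprised 15 genes at 0 throughout and 14 with at most 0.497 FPKM in any library. Among those at 0 were TRIM54 and TRIM63, ligases of striated muscle, and TRIM71, a stem cell protein.

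With IFN-beta, 17 of the 43 tested TRIM genes rose, 6 fell and 20 did not pass (limma on log2(FPKM + 0.5), two-sided, adjusted p threshold of 0.05 over all 15163 genes tested). Of all tested genes 42.4% passed, 22.5% as higher and 19.9% as lower. TRIM genes passed in 53.5% of cases, 39.5% as higher and 13.95% as lower. A rise of at least 2-fold was called in 5 TRIM genes, or 11.6% of those tested, where 2.96% of all tested genes had one. The median log2 change of the 43 TRIM genes was 0.04, against 0.01 over all tested genes. No value of one group overlapped the other in 29 TRIM genes. IFN-beta libraries were all higher in 19 of them, or 44.2%, against 28.6% of all tested genes, and all lower in 10, or 23.3%, against 25.4% of all tested genes.

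**Figure D1:**
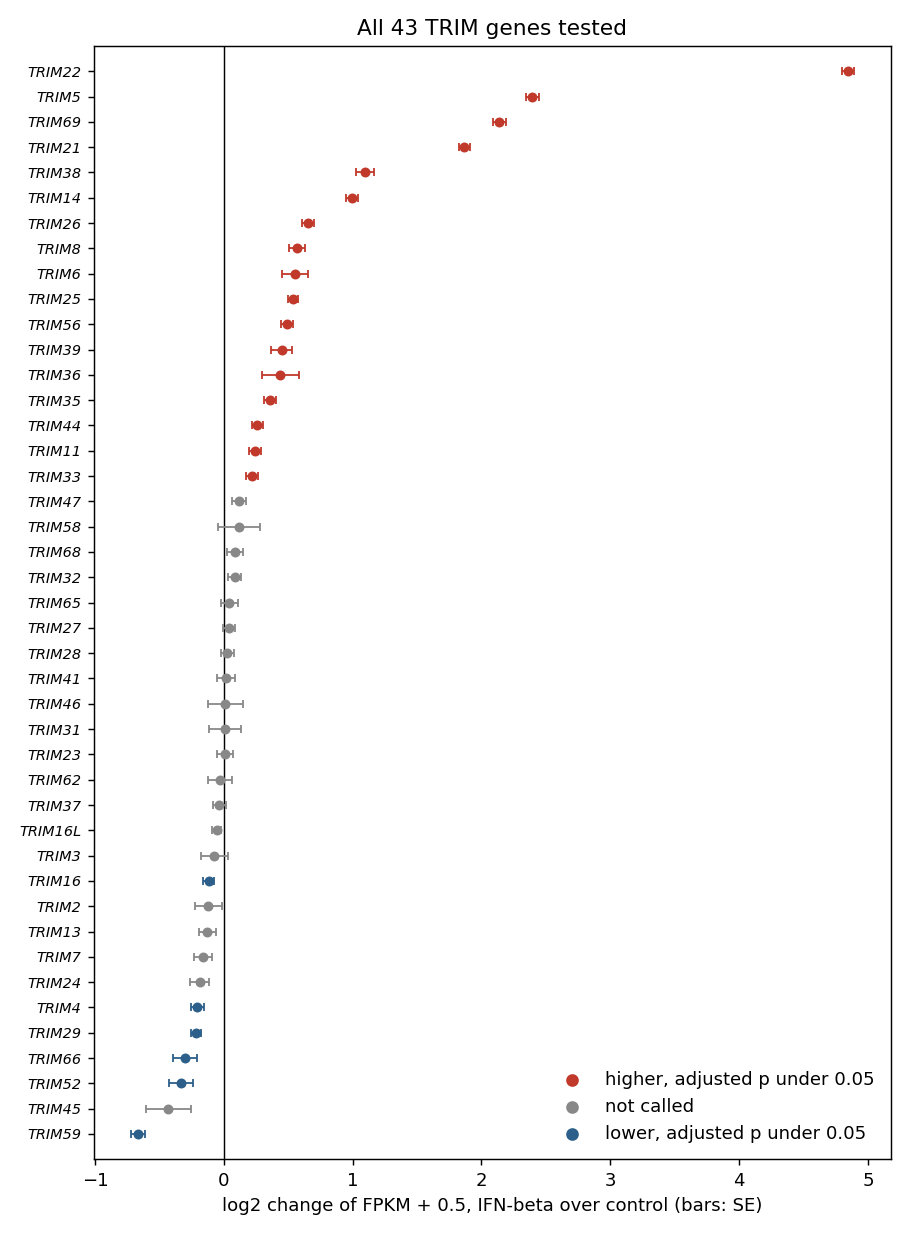
Log2 change (FPKM + 0.5, IFN-beta over control, horizontal axis) of the 43 tested TRIM genes, with bars for SE; red genes passed as higher, blue genes as lower and grey genes did not pass. TRIM22 stands alone at 4.85, TRIM5, TRIM69 and TRIM21 lie between 1.87 and 2.40, TRIM38 and TRIM14 lie near 1 and all others lie between -0.67 and 0.65.

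The largest rises were those of TRIM22, TRIM5, TRIM69 and TRIM21. TRIM22, an interferon-inducible protein that restrains transcription of HIV-1 and targets the influenza nucleoprotein, had 531, 551 and 534 FPKM in IFN-beta libraries, against 16.9, 18.9 and 18.9 FPKM in control libraries. The groups lay far apart, with means of 539 ± 10.6 FPKM in IFN-beta and 18.3 ± 1.14 FPKM in control libraries, a 29.5-fold ratio. Its log2 change was 4.85 ± 0.048 (limma adjusted p = 1.88e-11), the 17th largest of all 15163 genes tested. TRIM22 was the TRIM gene of highest level with IFN-beta and stood at rank 23 of the 72 in control libraries.

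TRIM5, which binds the capsid of incoming retroviruses, had 126, 134 and 129 FPKM in IFN-beta libraries, against 25.2, 24.4 and 22.9 FPKM in control libraries. This was a log2 change of 2.40 ± 0.047 (limma adjusted p = 1.33e-09), and the lowest IFN-beta library stood well above the highest control library. TRIM69, an interferon-inducible protein that restricts vesicular stomatitis virus, had 102, 109 and 108 FPKM in IFN-beta libraries, against 24.8, 24.3 and 22.4 FPKM in control libraries. The change on the log2 scale was 2.14 ± 0.050 (limma adjusted p = 3.84e-09), again with a wide gap between the groups. TRIM21, the cytosolic antibody receptor that sends antibody-coated virions to the proteasome, had 101, 105 and 108 FPKM in IFN-beta libraries, against 28.9, 27.3 and 28.6 FPKM in control libraries. Its log2 change was 1.87 ± 0.043 (limma adjusted p = 3.41e-09). In control libraries these 3 genes and TRIM22 held similar middle ranks of the family, between 14 and 23.

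Some reads behind these genes could come from shared sequence. TRIM5 and TRIM22 overlap on opposite strands of chromosome 11, TRIM5 from 5663195 to 5938619 and TRIM22 from 5689697 to 5737089 as the deposited table gives them, but no exonic base of either lies in an exon of the other strand in GENCODE release 29. Of the exonic bases of TRIM22, 10.7% are shared with the olfactory receptor gene OR56B1, which was at 0 in every library. Of those of TRIM5, 7.95% are shared with AC104389.4, also at 0 in every library. TRIM21 (chromosome 11, 4384897 to 4393702) shares no exonic bases, and neither does TRIM69 (chromosome 15, 44728988 to 44767829). Sequence elsewhere can also be alike, which was read from the 31-base words that occur in transcripts of other genes. These made up 16.2% of the words of TRIM22, 9.41% for TRIM5, 4.93% for TRIM69 and 0% for TRIM21.

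**Figure D2:**
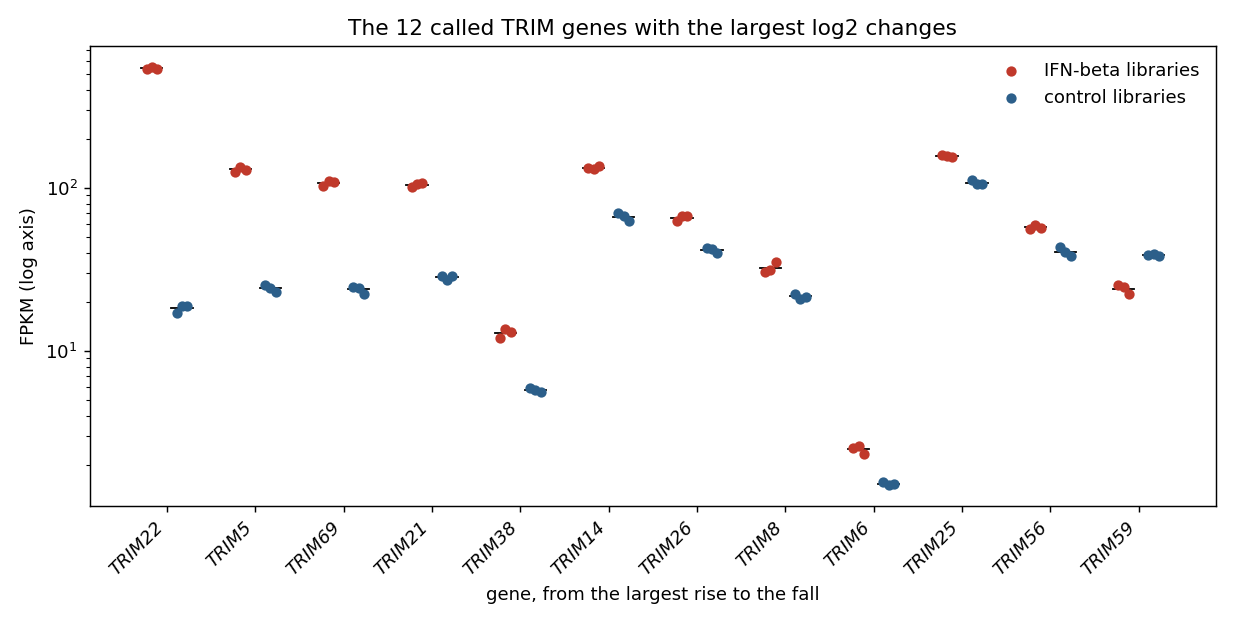
FPKM (vertical log axis) in each of the 3 IFN-beta libraries (red, left) and 3 control libraries (blue, right) for the 12 called TRIM genes with the largest absolute log2 changes, with black lines at group means. The groups do not overlap in any of the 12, and TRIM59 alone is lower with IFN-beta.

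TRIM25 (chromosome 17, 56836387 to 56914080) attaches ubiquitin chains to the RNA sensor RIG-I. It had 158, 156 and 155 FPKM in IFN-beta libraries, against 111, 106 and 106 FPKM in control libraries, a log2 change of 0.54 ± 0.036 (limma adjusted p = 6.34e-06). It held rank 4 of the family in both groups. TRIM14 (chromosome 9, 98069275 to 98119222), which lacks a RING finger and acts as an adaptor at the mitochondrial protein MAVS, had 132, 130 and 136 FPKM in IFN-beta libraries, against 69.8, 66.7 and 62.2 FPKM in control libraries. On the log2 scale it changed by 1.00 ± 0.048 (limma adjusted p = 7.34e-07), and 7.72% of the TRIM14 exonic bases overlap, on the other strand, exons of NANS, a gene that itself was lower with IFN-beta (log2 change -0.19).

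TRIM38 (chromosome 6, 25962802 to 25991231), a regulator of TAB2 and TAB3 and of RNA and DNA sensors, had 12.01, 13.7 and 13.1 FPKM in IFN-beta libraries, against 5.93, 5.77 and 5.602 FPKM in control libraries. This was a log2 change of 1.10 ± 0.068 (limma adjusted p = 4.23e-06). The groups did not overlap, and the ratio of their means was 2.24. TRIM26, reported to degrade nuclear IRF3, had 62.4, 67.5 and 67.1 FPKM in IFN-beta libraries, against 42.8, 41.9 and 40.0 FPKM in control libraries, a log2 change of 0.65 ± 0.046. TRIM56, which acts in double-stranded DNA and RNA sensing, had 56.0, 58.8 and 56.3 FPKM in IFN-beta libraries, against 43.04, 40.1 and 38.3 FPKM in control libraries, a log2 change of 0.49 ± 0.050. TRIM8, which acts on the interferon signalling brake SOCS1, had 30.3, 31.5 and 34.9 FPKM in IFN-beta libraries, against 22.3, 20.9 and 21.4 FPKM in control libraries. Its log2 change was 0.57 ± 0.059, and 14.1% of its exonic bases are shared on the opposite strand.

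TRIM6, which makes free ubiquitin chains that activate the kinase IKBKE, had 2.55, 2.60 and 2.32 FPKM in IFN-beta libraries, against 1.58, 1.51 and 1.52 FPKM in control libraries. The log2 change was 0.55 ± 0.103 (limma adjusted p = 0.00258), which understates the 1.62-fold ratio of FPKM because the level is near the added 0.5. Of its exonic bases 29.3% are shared with the readthrough gene TRIM6-TRIM34, whose row was at 0 in every library. Of the 31-base words in TRIM6 transcripts 29.8% occur in transcripts of other genes, those of TRIM6-TRIM34 first and of TRIM5 next. The part of TRIM5 reads in the TRIM6 value was not tested. TRIM34, a close relative that lies 6805 bases from TRIM6, could not be told from background at these depths: it had 0, 3 and 4 reads in IFN-beta libraries and 1, 2 and 0 reads in control libraries, where 3 reads correspond to 0.0598 to 0.0709 FPKM. Of its exonic bases 83.0% are shared with the same readthrough gene.

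Of the 11 TRIM genes listed as antiviral or acting in sensor signalling, 10 were tested, 8 rose and 2 did not pass, with a median log2 change of 0.82. The shares over all tested genes were 22.5% higher and 19.9% lower. The list was drawn up with earlier results of these data known, so its direction is not independent evidence. The 2 that did not pass were TRIM65 and TRIM31. TRIM65, which ubiquitinates the RNA sensor IFIH1, had 21.8, 20.4 and 23.3 FPKM in IFN-beta libraries, against 22.4, 21.7 and 19.6 FPKM in control libraries. The log2 change of TRIM65 was 0.04 ± 0.067 (limma adjusted p = 0.651). TRIM31, which ubiquitinates MAVS, had 20.1, 22.3 and 19.1 FPKM in IFN-beta libraries, against 21.8, 23.7 and 16.2 FPKM in control libraries. Its control libraries spread more widely than its IFN-beta libraries, the groups overlapped, and the log2 change was 0.01 ± 0.124 (limma adjusted p = 0.962).

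Smaller rises were called in 6 further genes. TRIM39, a regulator of the cell cycle and of apoptosis, had a log2 change of 0.45 ± 0.078, with 29.5% of its exonic bases shared with TRIM39-RPP21, a readthrough gene at 0 in every library. TRIM35 had 27.7 ± 1.12 FPKM in IFN-beta and 21.5 ± 0.229 FPKM in control libraries (log2 change 0.36). TRIM44, a RING-less member with a ubiquitin protease type zinc finger, changed by 0.26, TRIM11 by 0.24 and TRIM33, a partner of SMAD4 also known as TIF1 gamma, by 0.22 on the log2 scale. TRIM36, a microtubule-associated member, stood at 2.69 ± 0.380 FPKM in IFN-beta and 1.86 ± 0.337 FPKM in control libraries, with a log2 change of 0.44 ± 0.144 (limma adjusted p = 0.0360). Leaving out IFN-beta replicate 2 gave TRIM36 a limma adjusted p of 0.114, leaving out replicate 3 gave 0.105 and leaving out control replicate 3 gave 0.0937. Testing genes of any level gave TRIM36 a limma adjusted p of 0.119, quantile normalization gave 0.0676 and the replicate block gave 0.0561, so each of these 6 alternatives ended the call.

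The largest fall was that of TRIM59 (chromosome 3, 160432445 to 160485773), a membrane-anchored member linked to cell proliferation. It had 25.4, 24.7 and 22.2 FPKM in IFN-beta libraries, against 38.4, 39.1 and 38.2 FPKM in control libraries, and the groups were clearly separate. On the log2 scale it changed by -0.67 ± 0.055 (limma adjusted p = 2.27e-05). Of the exonic bases of TRIM59 19.9% are shared on the opposite strand, where the condensin subunit gene SMC4 lies, and 14.5% on the same strand. SMC4 was lower as well, at 452 ± 14.8 FPKM in IFN-beta and 561 ± 12.4 FPKM in control libraries (log2 change -0.31). The use of strand in counting is not given in the sources used here, so the part of SMC4 reads in the TRIM59 value was not tested.

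TRIM29 (chromosome 11, 120111286 to 120185529), a RING-less member of stratified epithelia, was the TRIM gene of highest level in control libraries. It had 377, 378 and 373 FPKM in IFN-beta libraries, against 454, 442 and 415 FPKM in control libraries, a log2 change of -0.22 ± 0.041 (limma adjusted p = 0.00281). With IFN-beta it thus held rank 2 behind TRIM22, and the ranges of the 2 genes did not overlap. TRIM4, reported to ubiquitinate RIG-I, had 15.7 ± 0.0378 FPKM in IFN-beta and 18.2 ± 0.431 FPKM in control libraries (log2 change -0.20).

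The other 3 falls lost their call under some alternatives. TRIM52 had 6.05, 6.02 and 5.07 FPKM in IFN-beta libraries, against 7.21, 7.99 and 6.70 FPKM in control libraries, or -0.33 ± 0.093 on the log2 scale (limma adjusted p = 0.0201). For TRIM52 the limma adjusted p was 0.0678 when IFN-beta replicate 3 was omitted, 0.0766 when control replicate 2 was and 0.0577 when genes of any level were tested, and 28.5% of its exonic bases are shared on the opposite strand. TRIM66, the testis-linked relative of the TIF1 repressors, had a log2 change of -0.30 ± 0.095 (limma adjusted p = 0.0299). For TRIM66 the limma adjusted p was 0.0512 when IFN-beta replicate 2 was omitted, 0.0999 for IFN-beta replicate 3 and 0.0884 for control replicate 1. It was 0.0795 when genes of any level were tested and 0.0577 on the TPM scale.

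TRIM16, a RING-less member that acts in autophagy of damaged organelles, had 59.9, 62.4 and 62.0 FPKM in IFN-beta libraries, against 68.6, 67.8 and 63.9 FPKM in control libraries. Its log2 change was -0.12 ± 0.041 (limma adjusted p = 0.0466), and the call ended under 10 of 17 alternatives. Omitting IFN-beta replicates 1, 2 and 3 in turn gave TRIM16 limma adjusted p-values of 0.153, 0.0864 and 0.0887, and omitting control replicates 1 and 2 gave 0.106 and 0.139. The other alternatives, each with its limma adjusted p, were no filter on level (0.0759), rescaling to the same sum (0.214), eBayes without trend (0.103), the replicate block (0.0843) and voom on recovered reads (0.0518). Of the 31-base words in TRIM16 transcripts 51.8% occur in transcripts of other genes, first of all the near copy TRIM16L, so the levels of both are uncertain. TRIM16L had 107, 107 and 102 FPKM in IFN-beta libraries, against 111, 110 and 109 FPKM in control libraries (log2 change -0.05, limma adjusted p = 0.258).

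Of the family's chromatin regulators with RING finger, PHD finger and bromodomain, TRIM33 rose as given above. TRIM28 and TRIM24 did not pass. TRIM28, the corepressor that zinc finger proteins use to silence retroelements, had 233, 226 and 241 FPKM in IFN-beta libraries, against 245, 228 and 215 FPKM in control libraries. Its groups overlapped, with a log2 change of 0.03 ± 0.051 (limma adjusted p = 0.697). TRIM24 had 8.84 ± 0.565 FPKM in IFN-beta and 10.1 ± 0.678 FPKM in control libraries (log2 change -0.19, limma adjusted p = 0.0682). It passed without control replicate 3 (limma adjusted p = 0.0439), after quantile normalization (limma adjusted p = 0.0219), with median-of-ratios size factors (limma adjusted p = 0.0483) and with voom (limma adjusted p = 0.0319). Among 13 listed partners of TRIM28 2 rose and 3 fell, beside 22.5% higher and 19.9% lower over all tested genes, so these counts are no result about the partners. They had the heterochromatin protein CBX5 (log2 change -0.55), the remodeller CHD3 (-0.32) and CBX1 (-0.16) lower and MORC2 (0.33) and HDAC2 (0.14) higher, and CBX3 did not pass (-0.09).

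The tested genes that did not pass had log2 changes between -0.43 for TRIM45, which carries a filamin domain, and 0.12 for TRIM47. TRIM45 had 0.856, 1.22 and 0.917 FPKM in IFN-beta libraries, against 1.97, 1.19 and 1.45 FPKM in control libraries, with overlapping groups (log2 SE 0.174, limma adjusted p = 0.0753). TRIM45 passed without control replicate 2 (limma adjusted p = 0.0458), after quantile normalization (limma adjusted p = 0.0273) and with voom (limma adjusted p = 0.0224). TRIM47 passed when IFN-beta replicate 2 was omitted (limma adjusted p = 0.0374) and on the TPM scale, where each library has the same sum (limma adjusted p = 0.0347), and 51.5% of its exonic bases are shared on the opposite strand. TRIM7 (-0.16) passed after quantile normalization (limma adjusted p = 0.0410). At higher levels, TRIM27 stood at 44.5 ± 1.91 FPKM in IFN-beta and 43.3 ± 1.20 FPKM in control libraries, and TRIM37, which guards centriole number, at 40.8 ± 1.14 FPKM in IFN-beta and 41.9 ± 2.35 FPKM in control libraries. TRIM13 (-0.13), TRIM2 (-0.12), TRIM3 (-0.08), TRIM62 (-0.03), TRIM23 (0.01), TRIM46 (0.01), TRIM41 (0.02), TRIM32 (0.08), TRIM68 (0.09) and TRIM58 (0.12) also did not pass, and neither did TRIM16L, TRIM65 and TRIM31 above. IFN-beta and control libraries did not overlap in TRIM47, TRIM32, TRIM16L, TRIM13, TRIM7 and TRIM24 although these did not pass.

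Below the filter, TRIM17 was the highest gene. It had 14, 11 and 21 reads in IFN-beta libraries, against 6, 4 and 5 reads in control libraries, or 0.378 ± 0.105 FPKM in IFN-beta and 0.128 ± 0.0273 FPKM in control libraries. Without the filter on level it had a log2 change of 0.48 (limma adjusted p = 0.0268). TRIM11 lies 1099 bases from TRIM17 on chromosome 1.

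Grouped by the domain class of the protein, most rises were in class C-IV, whose members have a RING finger and a C-terminal PRY-SPRY domain, which binds the target in TRIM5 and TRIM21. Of the 20 tested class C-IV genes 11 rose, 1 fell and 8 did not pass, with a median log2 change of 0.30. Beside this, 22.5% of all tested genes were higher and 19.9% lower, and class C-IV held 20 of the 43 tested TRIM genes. Some genes of other classes, TRIM36, TRIM46, TRIM14 and TRIM16 among them, also encode a PRY-SPRY domain and are not among those 20. The RING-less genes split, with TRIM14 and TRIM44 higher and TRIM16, TRIM29 and TRIM66 lower among 6. None of the 3 tested genes with NHL repeats, RNA-binding propellers found in TRIM2, TRIM3 and TRIM32, passed. Of 3 genes with a RING finger, a PHD finger and a bromodomain 1 rose, and the RING-less TRIM66 is not among them. Of 4 tested genes without a C-terminal domain 2 rose and 1 fell. The other classes hold few tested genes, so their counts are no result about them. The difference between classes was not tested.

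**Figure D3:**
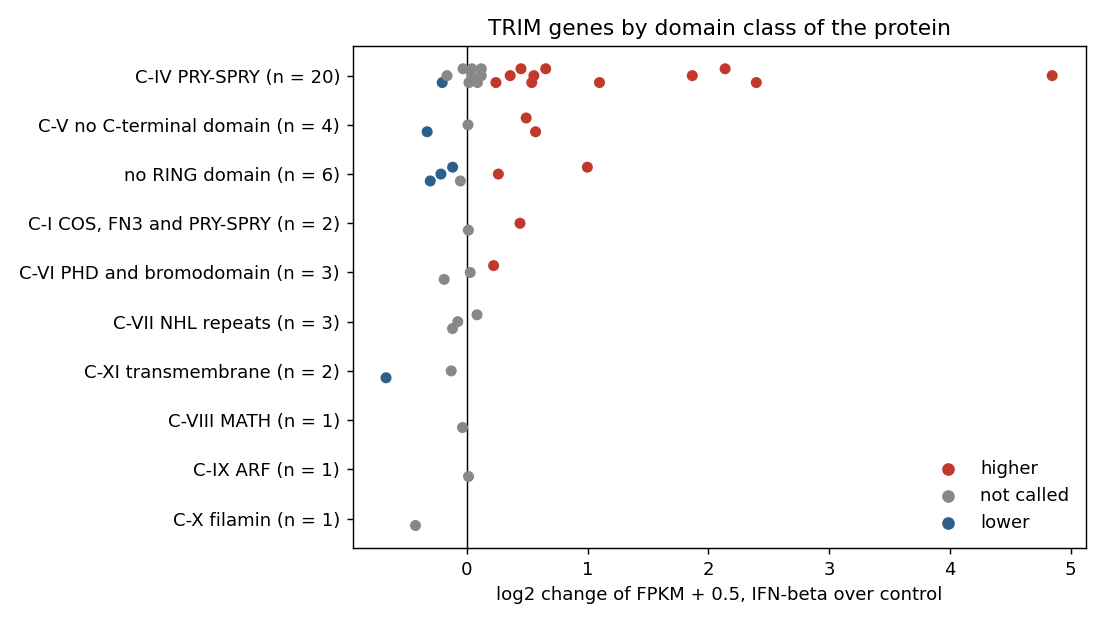
Log2 change (FPKM + 0.5, IFN-beta over control, horizontal axis) of the 43 tested TRIM genes, 1 point each, by domain class of the protein (rows; points are spread vertically for sight), red for higher, blue for lower and grey for not passed. All 4 changes above 1.5 lie in class C-IV, and the transmembrane class holds the fall of TRIM59.

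By position, 8 TRIM genes were listed in band 11p15 of chromosome 11. Of the 7 tested in that list, TRIM22, TRIM5, TRIM21 and TRIM6 rose, TRIM66 fell, and TRIM68 and TRIM3 did not pass. TRIM68 lies 204969 bases from TRIM21 and had 13.2 ± 0.508 FPKM in IFN-beta and 12.4 ± 0.564 FPKM in control libraries (log2 change 0.09), and did not pass. Of the 8 in a list from the short arm of chromosome 6, in and near the major histocompatibility complex, 5 were tested, and TRIM38, TRIM26 and TRIM39 rose while TRIM27 and TRIM31 did not pass. Beside both lists, 22.5% of all tested genes were higher and 19.9% lower. With so few genes these counts are no result about position, and the part of position was not tested.

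The response element core, shown in the sequences above, lay in at least 1 window of 6 of the 13 risen TRIM genes that had a window, namely TRIM5, TRIM69, TRIM21, TRIM14, TRIM26 and TRIM44. It lay in that of 1 of 4 genes that fell (TRIM16), 1 of 14 that did not pass (TRIM2) and 2 of 25 that were not tested (TRIM34 and TRIM64C). Counted by window, 10 of the 75 windows of TRIM genes held it, and 3.57% of all 35116 RefSeq windows of that length did. TRIM25, TRIM38, TRIM6, TRIM56, TRIM39, TRIM36 and TRIM33 rose without these letters in their windows. TRIM22, TRIM8, TRIM35 and TRIM11 were not searched. A match is a run of letters in a window, and some genes have other starts.

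Summed over the 72 genes, TRIM transcripts reached 2520, 2567 and 2548 FPKM in IFN-beta libraries, against 1702, 1656 and 1587 FPKM in control libraries. The means were 2545 ± 23.6 FPKM in IFN-beta and 1648 ± 58.0 FPKM in control libraries, a ratio of 1.54 (two-sided exact permutation test, p = 0.1, which no arrangement of 6 libraries can undercut). TRIM22 alone made up 21.2% ± 0.254 of the sum in IFN-beta and 1.11% ± 0.103 in control libraries. Without TRIM22 the ratio of the sums was 1.23, and without TRIM22, TRIM5, TRIM69 and TRIM21 it was 1.07. The share of TRIM29 was 14.8% in IFN-beta and 26.5% in control libraries.

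**Figure D4:**
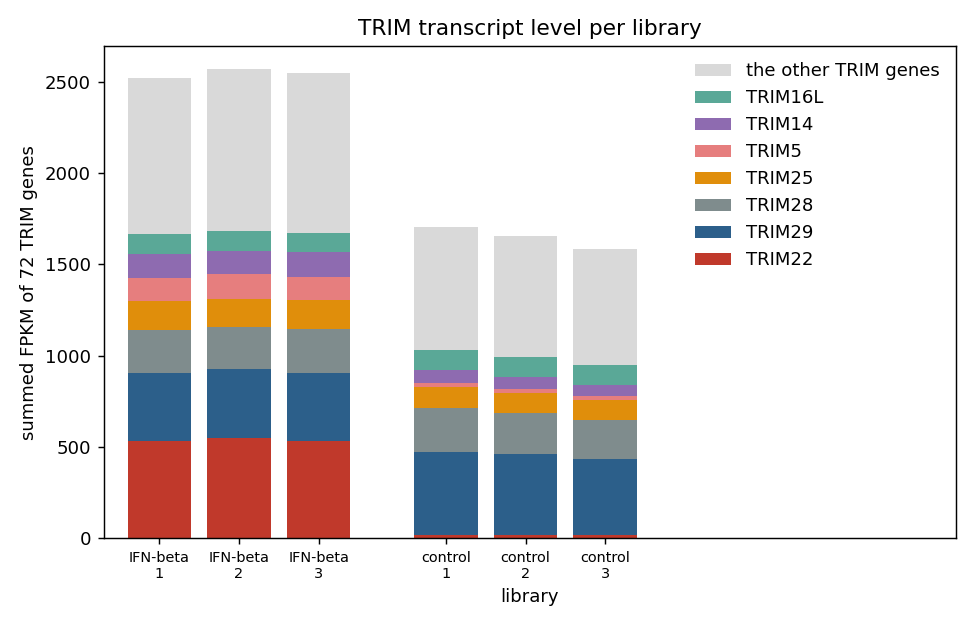
Summed FPKM of the 72 TRIM genes in each library (vertical axis, from 0), with IFN-beta libraries on the left and control libraries on the right and colours for the 7 named genes. TRIM22 (red) is a thin line at the foot of the control bars and about the height of 531 to 551 FPKM in the IFN-beta bars.

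Partner genes of the family were read beside it. TRIM proteins filed under other symbols split: PML, the organiser of PML nuclear bodies, had 149.7 ± 5.28 FPKM in IFN-beta and 67.5 ± 4.90 FPKM in control libraries (log2 change 1.15 ± 0.055), while MID1 (0.02) and MID2 (-0.03) did not pass. Of the 17 tested genes of the sensor axis that TRIM ligases act on, 12 rose, 1 fell and 4 did not pass. Over all tested genes 22.5% were higher and 19.9% lower. The list was drawn up with earlier results of these data known, so its direction is not independent evidence. IFIH1 (log2 change 3.23), DHX58 (3.09), DDX58, which encodes RIG-I (2.85), and STING1 (0.87) had the largest rises, MAVS was lower (-0.22), and TAB1 (-0.08) and MAP3K7 (0.02) did not pass.

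Of 17 E1 and E2 enzymes, which feed ubiquitin to the ligases, 5 rose, 2 fell and 10 did not pass, close to the 42.4% of all tested genes that passed, so the count is no result about these enzymes. The largest rises were UBA7 (log2 change 2.44) and UBE2L6 (2.25), the activating and conjugating enzymes of the ubiquitin-like protein ISG15, followed by UBA6 (0.44), while UBE2E3 fell (-0.45). UBA1, the main ubiquitin activating enzyme, had 191 ± 2.78 FPKM in IFN-beta and 194 ± 19.0 FPKM in control libraries and did not pass (-0.02), nor did UBE2D3 (0.03). Among 17 other E3 ligases of antiviral signalling 8 rose, 1 fell and 8 did not pass. The shares over all tested genes were 22.5% higher and 19.9% lower. HERC6 (3.92), the ISG15 ligase HERC5 (3.23), DTX3L (1.70) and RNF213 (1.70) led the rises. RNF135, which ubiquitinates RIG-I, was the one that fell (-0.24), and STUB1 (-0.09) and SIAH2 (0.08) did not pass. HDAC2, MAVS and RNF135 were named after their values were seen.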

How the data were processed

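RNA-seq of 6 HaCaT libraries (3 IFN-beta, 3 control) was used as the authors' deposited FPKM values per gene. Per the submitters' processing notes, CLC Genomics Workbench 11.0.1 and the mouse build GRCm38 (mm10) were named, yet all 60671 identifiers are human. No source used here names the human build or says whether counting used strand. Coordinates are those of the deposited table, of which 76.8% of the 58453 identifiers found in GENCODE release 29 had the same ones. All 72 TRIM genes were found there, but only 33 had the same coordinates. Shared exonic bases are those of GENCODE release 29, so they may differ from the exons that the authors counted. Members and lists were chosen with earlier results of these data known. Every tested TRIM gene could be named. Values per library are given for the 12 called genes of largest absolute change, the 6 of highest level and TRIM5, TRIM14, TRIM22 and TRIM25, and from partner lists up to 4 called genes by size and 2 not called by level. Further genes are shown for the calls that some setting ended. FPKM were tested as log2(FPKM + 0.5), which understates changes of low genes, with limma 3.58.1 (R 4.3.3, eBayes with trend, two-sided) over 15163 genes with a mean of at least 0.5 FPKM, with Benjamini-Hochberg adjustment. The test was checked on simulated data. Library totals of 25832158 to 30594527 reads were recovered from FPKM steps, with 100% of 30507 genes whole within 0.01 reads. Each gene took the first length that made its values whole. For genes above 0 in few libraries some length nearly always does, so that share does not test their read counts. Floors of 3 reads cover counting error only. Alternatives were another pseudocount, filter, scaling or eBayes setting, the replicate number as a block, voom on recovered reads and each library left out. Promoter windows came from RefSeq (GRCh38.p14).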

Additional observations from a re-analysis of the deposited data

How the results depend on the processing

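TRIM genes called higher numbered 16 to 18 over all alternatives, against 17 as reported, and all tested genes called numbered 5166 to 6874. TRIM genes called lower numbered 6 as reported and 3 to 9 over all alternatives, with 9 after quantile normalization, 4 on the TPM scale and 3 without the filter on level. They numbered from 3 to 7 when each library was left out, with 3 without IFN-beta replicate 3. The summed ratio ranged from 1.51 to 1.59, and TRIM genes without overlap from 24 to 32. The share of all calls that were higher was 53.2% as reported, 63.2% after rescaling to the same sum (TPM), which moved the median of all genes to 0.05, and 41.5% after quantile normalization, which moved it to -0.05. With the replicate block, 5817 genes passed, 16 TRIM genes as higher and 5 as lower. Same-numbered libraries did not deviate together (correlations of -0.05, -0.10 and -0.06). With 3 libraries per group this cannot show whether the numbers pair cultures. The log2 changes that reversed belonged to genes that did not pass. On the TPM scale TRIM62 was at 0.0106 and TRIM37 at 0.0092. After quantile normalization TRIM41 was at -0.0282, TRIM23 at -0.0545, TRIM31 at -0.0385, TRIM46 at -0.108 and TRIM65 at -0.0058. With size factors TRIM23 was at -0.0059 and TRIM31 at -0.0053, and with voom TRIM31 was at -0.0065 and TRIM46 at -0.00039. With each library left out, the ranges were -0.0340 to 0.0376 for TRIM23, -0.0185 to 0.0772 for TRIM28, -0.159 to 0.0104 for TRIM3, -0.148 to 0.117 for TRIM31, -0.0696 to 0.0074 for TRIM37, -0.0177 to 0.0778 for TRIM41, -0.0743 to 0.0788 for TRIM46, -0.108 to 0.0411 for TRIM62 and -0.0130 to 0.0881 for TRIM65. The cause was not tested.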

Other observations

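TRIML2, a TRIM-like gene outside the family's symbol rule, had 3.61, 4.56 and 4.72 FPKM in IFN-beta libraries, against 1.45, 1.83 and 2.20 FPKM in control libraries. The groups did not overlap, and its log2 change was 1.05 ± 0.145 (limma adjusted p = 5.17e-04). TRIM52-AS1, the antisense gene of TRIM52, stood at 3.66 ± 0.337 FPKM in IFN-beta and 5.55 ± 0.877 FPKM in control libraries (SD, n = 3 each), or -0.53 on the log2 scale (limma adjusted p = 0.00684). Its direction was that of TRIM52. Reads from exons that overlap on opposite strands cannot be told apart where strand was not used in counting. In GENCODE release 29 the only gene listed as sharing exonic bases with TRIM52 was CTC-338M12.4. TRIM52-AS1 was not listed there, and the exons that the authors counted may differ. Why TRIM52 and TRIM52-AS1 were both lower was not tested. TRIML2 and TRIM52-AS1 were chosen after their values were seen.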
